A study of Mus musculus with 50 samples.

Results

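The AMPA and NMDA receptor subunit genes were followed on the Agilent whole mouse genome arrays, on which hippocampal RNA of wild-type (WT) mice was compared with that of transgenic (TG) mice. The genes were Gria1, Gria2, Gria3 and Gria4, which encode the AMPA receptor subunits, and Grin1, Grin2a, Grin2b, Grin2c, Grin2d and Grin3a, which encode NMDA receptor subunits. A probe was taken when its RefSeq accession, or the symbol in its description, was one of these 10 names. This gave 13 probes of 9 genes, all 13 by accession, among 16786 genes that could be named on the array. No probe of Grin3a was found in this way. In addition, 7 probes that the array annotation gives only in words or as a RIKEN clone, including those of the clones listed as Grin3a synonyms, are described separately.

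AMPA receptors carry most of the fast excitatory current at glutamatergic synapses, and NMDA receptors act as detectors of coincident activity that let calcium into the cell. In the hippocampus their balance underlies long-term potentiation and depression, the best studied forms of synaptic plasticity. GluA1 and GluA2, the products of Gria1 and Gria2, are the main AMPA subunits of pyramidal neurons. Grin1 encodes the obligatory subunit of all NMDA receptors, which is combined with the products of the Grin2 genes.

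The WT mice were males of the C57/BL6j strain, 5 in number, and the 5 TG mice were males on the same background that over-express DCLK-short, a splice variant of doublecortin-like kinase. The mice were housed singly before both hippocampi were dissected, and no treatment of either group is described. The promoter of the transgene, the number of founder lines and the age of the mice are not given in the sources used here. Each of the 10 arrays was hybridized with the cRNA of 1 WT and 1 TG mouse in Cy3 and Cy5, and each mouse was present on 2 arrays, once in each dye, with a different partner each time. Arrays are named here by their mice, so that WT1/TG4 is the array that holds mice WT1 and TG4. All ratios are log2 of TG over WT after loess normalization.

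All directions are given as labelled. The direction that the array labels give is opposite to the one the study gives for its differentially expressed genes. Tmem254a, a transmembrane protein gene that could also be named on the ABI arrays, had raw ABI signals of 6999.6 to 10675 in 5 WT mice and 24258 to 30367 in 5 TG mice. On Agilent its log2 ratio was -0.99 ± 0.049 (SE, 10 arrays), below 0 on 10 of 10 arrays as labelled. The labels of the 5 arrays with WT in Cy3 and the 5 with TG in Cy3 may thus be exchanged. Such an exchange would turn the sign of every ratio below, would leave the sizes and p values of the fit over arrays as they are, and would give each array another pair of mice. When the Cy3 and the Cy5 channel of the same mouse were compared over 30200 probes well above background, as deviations from the mean of their dye and orientation, the correlation averaged 0.234 with the mice as labelled and 0.315 after the exchange. It was higher as labelled for 4 mice and after the exchange for 6.

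Median raw signals ranged over the arrays from 108.4 to 168.5 in Cy3 and from 77.55 to 163.2 in Cy5, and 80.1% to 88.4% of the probes were well above background in both channels. The number of arrays limits the precision. The 2 arrays of the mouse labelled TG4 stood apart: the SD of the log2 ratio over all probes was 0.321 on WT1/TG4 and 0.384 on WT3/TG4, and 0.138 to 0.226 on the other 8 arrays. Their ratios correlated with r = 0.80 across probes, and probes are not independent replicates. After the exchange described above, these 2 arrays would share the mouse WT5 in place of TG4. Of the 13 subunit probes 12 were well above background on all 10 arrays, and none had a saturated spot.

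Of the 13 subunit probes 1 differed between TG and WT at a False Discovery Rate (FDR) of 0.1, the limit of the study, and it was lower in TG as labelled. This share of 7.69% was close to that of all 41174 probes, of which 7.41% passed in either direction and 3.76% were lower and 3.66% higher in TG. The log2 ratio was below 0 for 9 and above 0 for 4 of the 13 probes, with a median of -0.08 against 0.002 over all probes. With 1 value per mouse, 5 WT against 5 TG, none of the 13 passed the FDR in limma, 1 had an unadjusted p under 0.05, and 0.0583% of all probes passed. The array fit takes 10 arrays of 10 mice as independent although every mouse enters on 2 arrays, so its p values are too small.

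**Figure D1:**
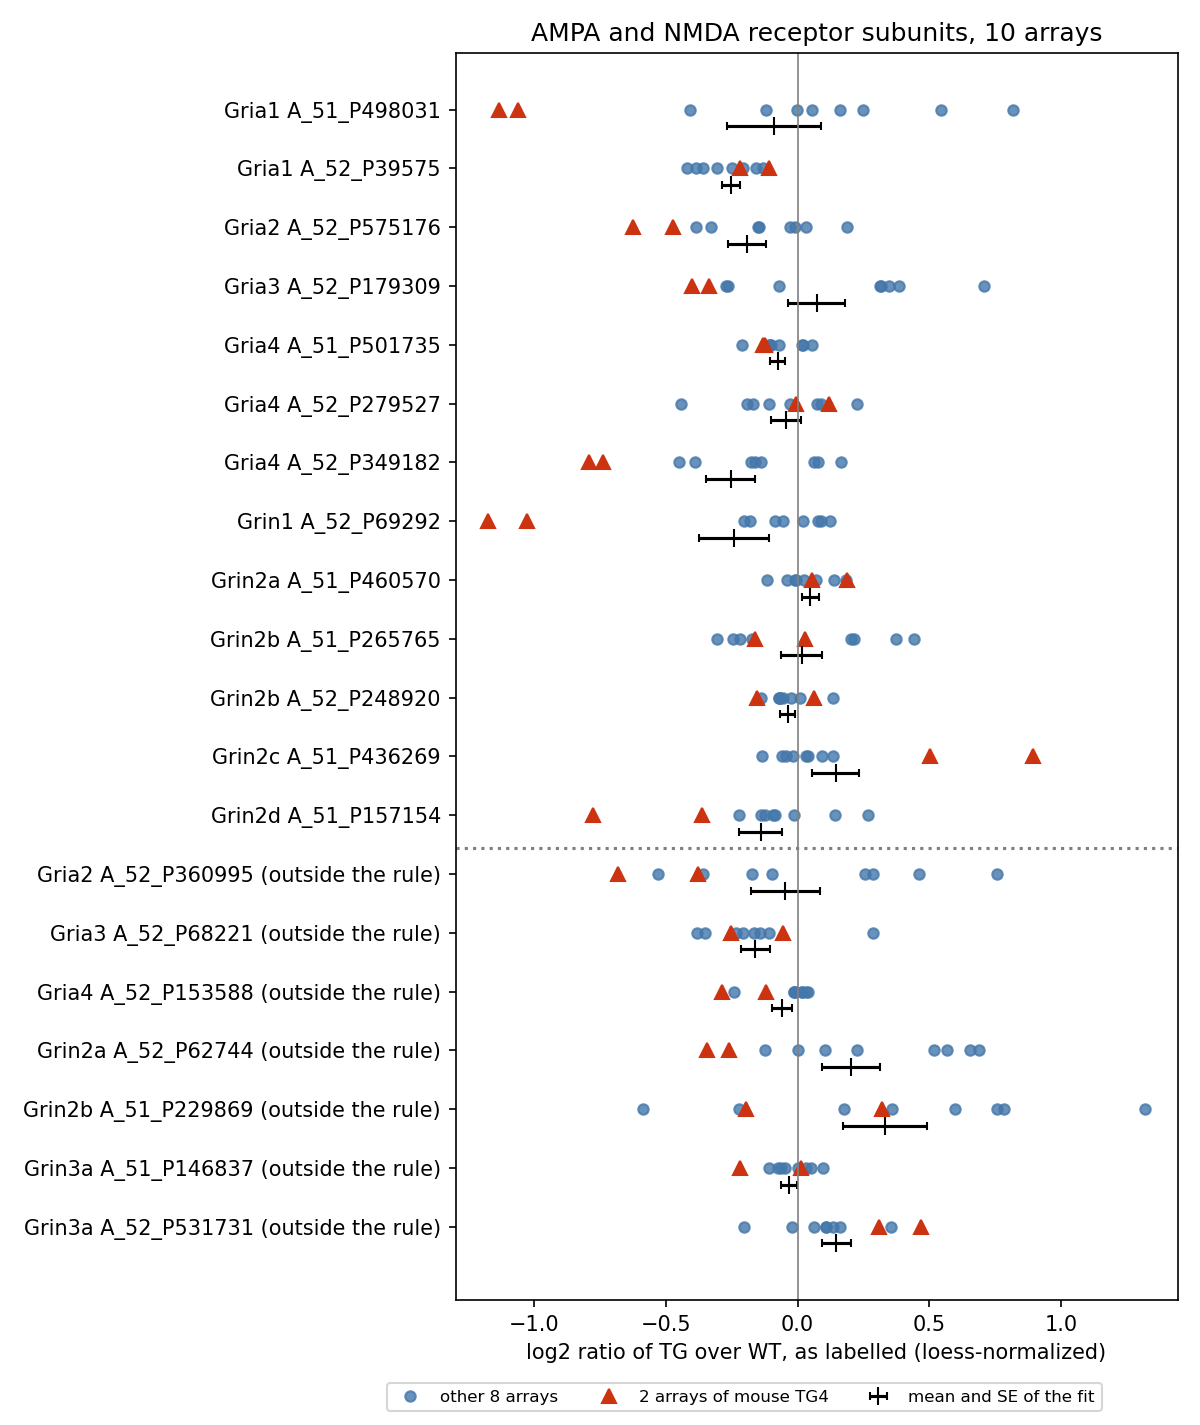
Log2 ratio of TG over WT (x axis, as labelled) of each subunit probe (y axis) on 10 arrays, with the 2 arrays of mouse TG4 as triangles and the mean and SE of the fit in black. Probes below the dotted line lie outside the selection rule. For Gria1 A_52_P39575 all 10 arrays lie between -0.42 and -0.11, while for Grin1 and Gria1 A_51_P498031 the TG4 arrays lie near -1.1.

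Gria1 was measured by 2 probes that gave different results. The probe A_52_P39575 was the one that passed. Its level, the log2 normalized signal averaged over both dyes of a mouse, was 12.75 in WT1, 12.81 in WT3, 12.68 in WT4, 12.85 in WT5 and 12.82 in WT6. It was 12.59 in TG1, 12.43 in TG2, 12.46 in TG3, 12.59 in TG4 and 12.57 in TG5. All 5 TG mice as labelled were thus below all 5 WT mice, with means of 12.53 ± 0.08 and 12.78 ± 0.07 (SD, n = 5). This was the case for 1 of the 13 subunit probes, and the levels of the groups did not overlap for 2.09% of all probes.

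On single arrays the log2 ratio of this Gria1 probe was -0.42 at the lowest, -0.23 at the median and -0.11 at the highest, and it was below 0 on 10 of 10 arrays. The mean was -0.25 ± 0.03 (SE, 10 arrays), that is, a signal 0.839 times that of WT as labelled, with an FDR of 0.0079 by limma and rank 61 of all probes. The mean was -0.28 on the 5 arrays with WT in Cy3 and -0.23 on the 5 with TG in Cy3, so both dye orientations gave the same sign. Without the 2 arrays of TG4 it was -0.28 ± 0.04 (SE) with an FDR of 0.0154. With 1 value per mouse the difference was the same, -0.25 ± 0.05 (SE), but the FDR was 0.148, and 0.290 after the exchange of the arrays. When arrays were centred on their median in place of loess, the log2 ratio was -0.0978 with an FDR of 0.69.

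The other Gria1 probe, A_51_P498031, lies 40527 bases upstream of the first on chromosome 11 in the coordinates of the array annotation, which name no genome build (57015058 to 57015117, against 57055585 to 57055644). Its log2 ratio was -1.13 on WT1/TG4 and -1.06 on WT3/TG4 but between -0.41 and 0.82 on the other arrays, with 5 arrays below and 5 above 0. The mean was -0.09 ± 0.18 (SE, 10 arrays, FDR = 0.874), and 0.16 ± 0.11 (SE, FDR = 0.583) without the TG4 arrays. Its level was 10.26 in TG4 and between 11.09 and 11.56 in the other TG mice, against 11.04 to 11.31 in the WT mice. The 2 Gria1 probes thus did not follow each other over the arrays (r = -0.223), and with both averaged before the fit Gria1 had a log2 ratio of -0.17 ± 0.09 (SE, FDR = 0.274).

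**Figure D2:**
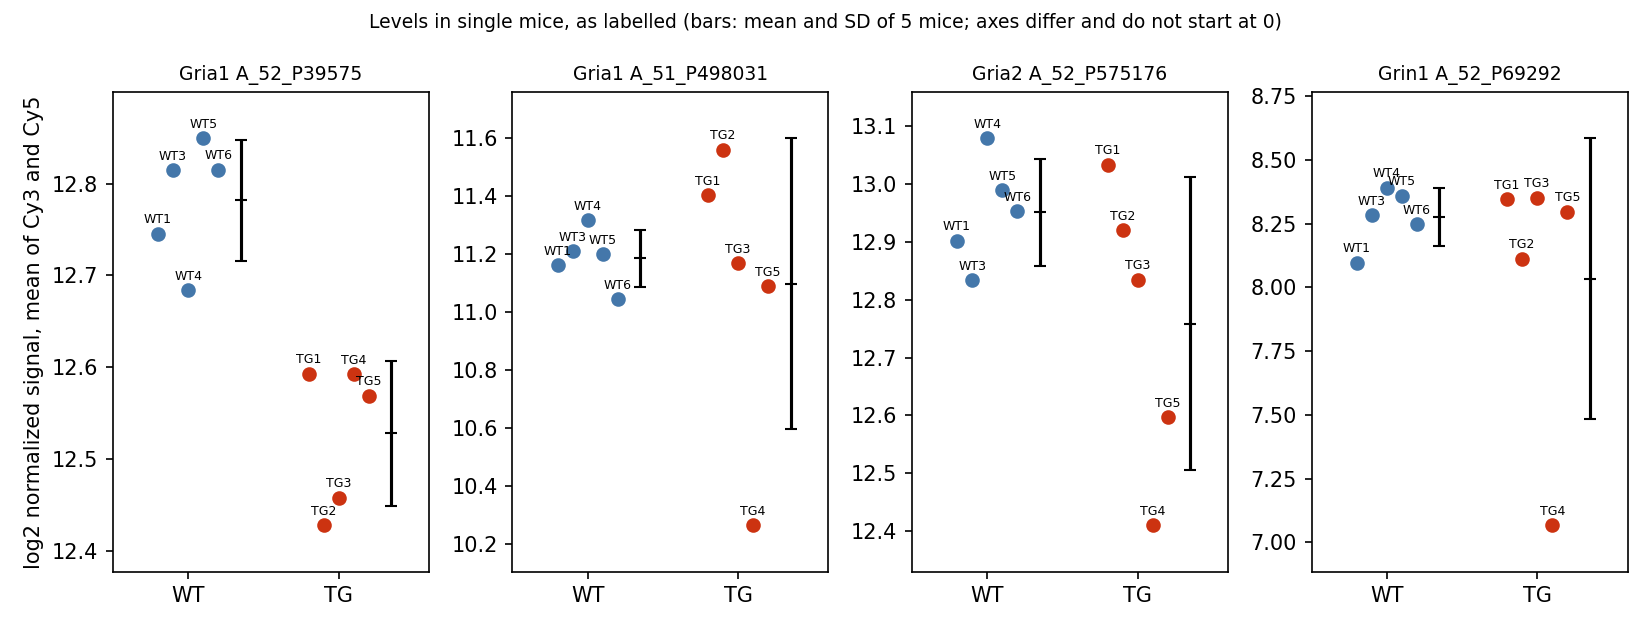
Log2 normalized signal (y axis, mean of the Cy3 and the Cy5 channel) of single WT and TG mice, as labelled, for 4 subunit probes, with the mean and SD of 5 mice as bars. The groups are apart for Gria1 A_52_P39575 (12.68 and above in WT, 12.59 and below in TG) and overlap for the other probes, where TG4 is the lowest mouse.

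Gria2 encodes GluA2, the subunit whose RNA editing makes AMPA receptors impermeable to calcium. Its log2 ratio was between -0.63 and 0.19 with a median of -0.15, and it was below 0 on 8 of 10 arrays. The mean of -0.19 ± 0.07 (SE, FDR = 0.172) did not pass. The values of -0.47 and -0.63 on the TG4 arrays were the lowest of the 10, and without these arrays the mean was -0.10 ± 0.06 (SE, FDR = 0.464).

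Gria3, whose product pairs with GluA2 in hippocampal neurons, had a mean log2 ratio of 0.07 ± 0.11 (SE, FDR = 0.819). It ranged from -0.40 to 0.71, with 5 arrays on each side of 0, and both TG4 arrays were again the lowest. The spread between arrays (SD 0.385) was thus several times larger than the mean.

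Gria4, the AMPA subunit best known from interneurons and early development, was measured by 3 probes. The log2 ratio was -0.08 ± 0.03 (SE, FDR = 0.171) for A_51_P501735 and -0.04 ± 0.06 (SE, FDR = 0.780) for A_52_P279527, which lies 1767 bases away. It was -0.25 ± 0.09 (SE, FDR = 0.163) for A_52_P349182, which lies 82264 bases from the first. The last was as low on average as the Gria1 probe that passed, but it ranged from -0.79 to 0.16, and its mean was -0.13 ± 0.07 (SE, FDR = 0.421) without the TG4 arrays. A_51_P501735 ranged from -0.21 to 0.05 and passed the FDR with the log ratio of the scanner software or with a dye term beside the genotype. Both A_52_P349182 and A_51_P501735 were dim, with raw signals of 62.1 to 193.4 and 67.3 to 153.4.

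Grin1 was lowest in a single mouse. Its log2 ratio was -1.03 on WT1/TG4 and -1.17 on WT3/TG4, and between -0.20 and 0.12 on the other 8 arrays. The mean was -0.24 ± 0.13 (SE, 10 arrays, FDR = 0.364), and -0.03 ± 0.04 (SE, 8 arrays, FDR = 0.881) without TG4. The level was 7.07 in TG4, 8.11 to 8.35 in the other TG mice and 8.10 to 8.39 in the WT mice. The groups overlapped in all but this mouse.

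The Grin2 genes encode the subunits that set the kinetics and the magnesium block of NMDA receptors. Grin2a, the subunit that gains weight as hippocampal synapses mature, had a log2 ratio of 0.05 ± 0.03 (SE, FDR = 0.477) and ranged from -0.11 to 0.19. This probe was dim, with raw signals of 52.3 to 109.6. A brighter Grin2a probe outside the rule, A_52_P62744 (135.1 to 462.3), had 0.20 ± 0.11 (SE). The 2 probes did not follow each other over the arrays (r = -0.114). Grin2c, which is best known from the cerebellum and from astrocytes, had 0.14 ± 0.09 (SE, FDR = 0.438). It was 0.50 and 0.89 on the arrays of TG4 and between -0.13 and 0.14 on the others, so that TG4 was the highest mouse at 8.57, against 7.80 to 8.06 in the other TG mice. Grin2d, found in interneurons, had -0.14 ± 0.08 (SE, FDR = 0.40), with -0.78 and -0.36 on the TG4 arrays and -0.22 to 0.27 on the others.

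Grin2b, the Grin2 subunit of immature synapses, was measured by 2 probes that lie 809 bases apart. A_51_P265765 had a log2 ratio of 0.02 ± 0.08 (SE, FDR = 0.958), but this mean hides a split by dye. The ratio was between 0.03 and 0.44 on the 5 arrays with WT in Cy3 and between -0.31 and -0.16 on the 5 with TG in Cy3. The dye term, the part of the log2 ratio of Cy5 over Cy3 that is the same in both orientations, was 0.24 with an FDR of 0.0045 in a limma fit beside the genotype. It passed for this 1 of the 13 subunit probes and for 22.6% of all probes. A_52_P248920 had a log2 ratio of -0.04 ± 0.03 (SE, FDR = 0.574) and was well above background on 9 of 10 arrays, with raw signals of 48.1 to 110.1.

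**Figure D3:**
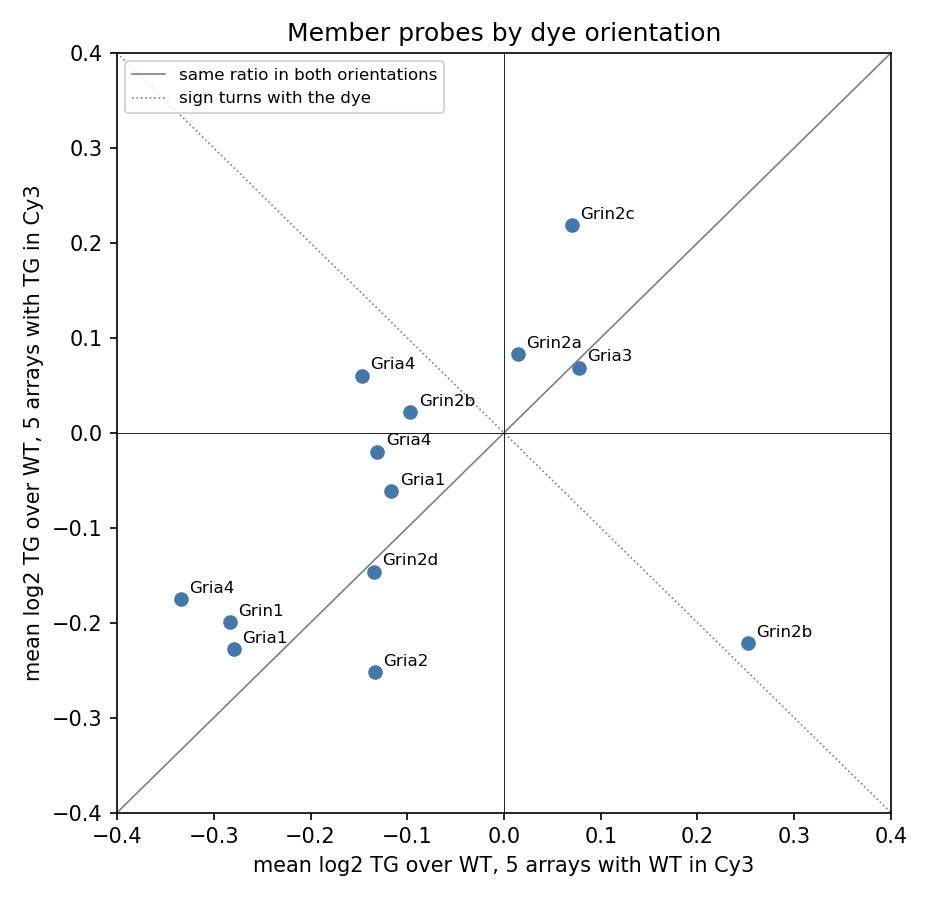
Mean log2 ratio of TG over WT of the 13 subunit probes on the 5 arrays with WT in Cy3 (x axis) and on the 5 with TG in Cy3 (y axis). Points on the solid line have the same ratio in both orientations. Grin2b A_51_P265765 lies near the dotted line at 0.25 and -0.22, where the sign turns with the dye.

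Among the probes of the rule, the 2 arrays of TG4 were the 2 lowest or the 2 highest of 10 for 7 of 13, or 53.8%. This held for 16.2% of all probes. Among the 7 probes outside the rule it held for Grin2a A_52_P62744 alone, and not for the further probes of Gria2, Gria3 and Gria4. Of these, Gria2 A_52_P360995 still averaged -0.53 on the TG4 arrays against 0.08 on the others. Gria4 A_52_P153588 had -0.20 against -0.02, and Gria3 A_52_P68221 had -0.15 against -0.16. The 7 probes of the rule were those of Gria1 (A_51_P498031), Gria2, Gria3, Gria4 (A_52_P349182), Grin1, Grin2c and Grin2d, and Grin2c alone was high on these arrays. Markers of oligodendrocytes and their precursors moved with them: the mean log2 ratio of 14 probes of 8 genes was -0.73 on WT1/TG4 and -0.65 on WT3/TG4, against -0.26 to 0.09 on the other arrays. That of 16 probes of granule and pyramidal neuron markers was -0.04 and -0.02 on the TG4 arrays, within the -0.09 to 0.03 of the others. This mean joins opposite values: against -0.10 and -0.26 on the other arrays, Zbtb20 averaged 0.43 and C1ql2 -0.48 on the TG4 arrays. Lists of other cell types also stood apart there. The mean over 8 astrocyte probes was -0.11 and 0.0063 on the TG4 arrays against 0.10 to 0.40 on the others. That over 11 cerebellum probes was -0.06 and -0.11 against 0.06 to 0.63. The mean of the cerebellum list was highest on the 2 arrays of WT6. Gabra6 of this list had 1.49 on WT6/TG1 and 1.63 on WT6/TG5, against -0.11 to 0.49 on the arrays without WT6. Zic2 of this list did not stand apart on the WT6 arrays (0.13 and -0.0049). The part of the cell types in these values was not tested. Without the TG4 arrays 1 of the 13 subunit probes passed, again Gria1 A_52_P39575, and 4.9% of all probes did.

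Between genotypes, 15 of 96 probes of the 9 marker lists passed (15.6%, against 7.41% of all probes tested). Of 8 astrocyte probes 3 were higher in TG as labelled, with a list median of 0.20. They were that of Aldh1l1 and those of Aqp4 other than A_52_P25710 (limma, FDR = 0.386). The defining astrocyte genes Gfap (-0.15) and Gja1 (-0.08) did not pass, and neither did Aldoc (-0.06) and S100b (0.21). From the other glial lists, 1 of 3 Mbp probes of the oligodendrocyte list was lower. Of the granule and pyramidal neuron markers, C1ql2 was lower and Calb1 higher (16 probes tested), and of 11 microglial probes 1 of 2 of Aif1 was higher and those of P2ry12 and Itgam were lower. Of the markers of neighbouring tissues, both Zic1 probes of the thalamus list were higher (11 probes, median 0.001). From the cerebellum list, Calb2 A_51_P311436 and Cbln1 A_51_P307721 were higher. The other probes of these genes did not pass in limma (FDR 0.212 and 0.671 for Calb2, 0.614 for Cbln1). Npy alone passed among 10 interneuron probes. None passed among 7 striatum and 8 choroid plexus probes in limma, where 1 Folr1 probe of the latter had an unadjusted p under 0.05. With 1 value per mouse none of the 96 marker probes passed in limma, and 13 had an unadjusted p under 0.05. Without the TG4 arrays 11 of the 15 calls were kept, and among those lost were Aif1 (FDR 0.164), Itgam (FDR 0.23) and Npy (FDR 0.1001). The lists of neighbouring tissues were also well above background, as all 6 cerebellum genes were, so that these flags do not show the tissue to be free of them. In whole hippocampi, fewer cells of a type and less RNA per cell cannot be told apart, and the part of these lists in the subunit values was not tested.

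The 7 probes outside the rule did not pass either (limma), and 2 of them had an unadjusted p under 0.05. A second probe of Gria3 (A_52_P68221) had a log2 ratio of -0.16 ± 0.05 (SE, FDR = 0.131) and was below 0 on 9 of 10 arrays, whereas the Gria3 probe of the rule had a positive mean. For Grin3a, which encodes a subunit that lowers the calcium permeability of NMDA receptors, the probe A_52_P531731 had a log2 ratio of 0.15 ± 0.06 (SE, FDR = 0.175), above 0 on 8 of 10 arrays. The probe of the other Grin3a clone, A_51_P146837, had -0.03 ± 0.03 (SE, FDR = 0.667). The further probes of Gria2, Gria4, Grin2a and Grin2b had log2 ratios of -0.05, -0.06, 0.20 and 0.33, with FDRs of 0.922, 0.453, 0.354 and 0.293. How far probes of 1 gene followed each other over the arrays varied. The further probe and that of the rule had r = 0.829 for Gria2 and 0.465 for Gria3. For Gria4 r was between -0.226 and 0.726, and for Grin2b it was 0.096 and 0.0996.

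Partners of the receptors were examined in 4 lists of 67 genes, of which 55 had 77 named probes. Of these probes 8 passed, 4 in each direction, or 10.4%, beside the 7.41% of all probes, and their median log2 ratio was -0.02. With 1 value per mouse none passed in limma, and 7 had an unadjusted p under 0.05. Without both arrays of WT4 none passed in the fit over arrays either.

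Among 9 probes of AMPA receptor auxiliary subunits 1 passed. Cnih2 encodes cornichon 2, which promotes the exit of AMPA receptors from the endoplasmic reticulum and slows their deactivation. Its log2 ratio was 0.10 at the lowest, 0.30 at the median and 0.62 at the highest, and it was above 0 on 10 of 10 arrays as labelled. The mean was 0.31 ± 0.06 (SE, FDR = 0.0223), opposite in sign to that of Gria1 A_52_P39575. With 1 value per mouse the FDR was 0.141.

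In the list of receptor trafficking, assembly and RNA editing, 2 of 28 probes passed. Arc, the product of an immediate early gene that drives the removal of AMPA receptors from the membrane, had a log2 ratio of 0.30 ± 0.05 (SE, FDR = 0.0205) and was above 0 on 10 of 10 arrays. Its values of 0.48 and 0.55 on the TG4 arrays were the highest. Porcn, the acyltransferase of Wnt proteins and a partner of AMPA receptors in the endoplasmic reticulum, had 0.21 ± 0.05 (SE, FDR = 0.0441) and was above 0 on 9 of 10 arrays.

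Among 23 probes of NMDA receptor partners and scaffolds 2 passed, both of Dlg1. Dlg1 encodes SAP97, a scaffold protein that binds the C-terminus of GluA1. Its probe A_52_P36731 had a log2 ratio of -0.22 ± 0.04 (SE, FDR = 0.0223) and was below 0 on 10 of 10 arrays, between -0.44 and -0.0045. The other probe, A_51_P101858, had -0.45 ± 0.14 (SE, FDR = 0.0946), with -1.32 and -1.26 on the TG4 arrays, and -0.24 (FDR = 0.0914) without them.

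Of 17 probes of glutamate synthesis, vesicular loading and uptake 3 passed. Both probes of Slc38a2, an amino acid transporter that carries glutamine, were lower in TG as labelled, with log2 ratios of -0.36 ± 0.07 (SE, FDR = 0.0326) and -0.45 ± 0.13 (SE, FDR = 0.0941). Without the TG4 arrays they were -0.32 (FDR = 0.0743) and -0.26 (FDR = 0.166). Slc17a6, the vesicular glutamate transporter VGLUT2, was higher with 1 probe (0.16 ± 0.04, SE, FDR = 0.0707), but its other probe gave -0.05 ± 0.09 (SE, FDR = 0.861).

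**Figure D4:**
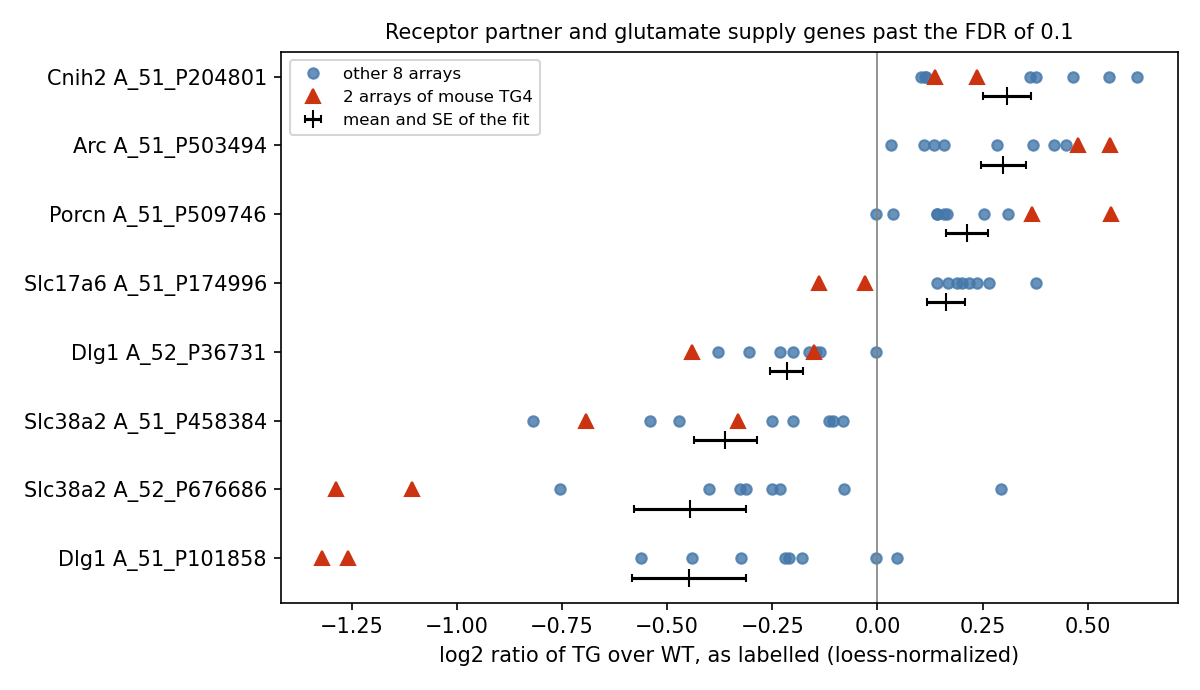
Log2 ratio of TG over WT (x axis, as labelled) on 10 arrays of the 8 probes of partner and glutamate supply genes that passed the FDR, with the arrays of TG4 as triangles and the mean and SE of the fit in black. Cnih2, Arc and Porcn lie on the right and Dlg1 and Slc38a2 on the left, and the TG4 arrays are lowest for Dlg1 A_51_P101858 at -1.32 and -1.26.

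The genes whose ratios followed those of Gria1 A_52_P39575 most closely over the 10 arrays, among 30200 probes well above background, were Hapln2 (r = 0.939), Vac14 (r = 0.935) and Ghitm (r = 0.923). For Grin1, the NMDA receptor gene with the smallest p among the probes of the rule, they were Tuba1b (r = 0.995), Thra (r = 0.995) and Eif4a1 (r = 0.994), and without the 2 arrays of TG4 these were 0.92, 0.924 and 0.905. Arrays share mice and are not independent, and the likeness is in the pattern only, as Vac14 had a mean log2 ratio of 0.06. The highest of 30200 correlations over 10 arrays can be large through selection alone, and this was not tested.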

How the data were processed

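Agilent arrays (5 WT and 5 TG mice, 10 arrays) were analysed. Per the file headers, the authors deposited each spot's raw intensity from the scanner software (mean and median over pixels) with its quality flags, and a log10 ratio corrected for background and dye by that software. ABI raw intensities, deposited by the authors without normalization, served only to check the labels, since none of the 311 ABI probes that could be named was a subunit. The Illumina columns carry a chip and a position but no mouse, and were left out. The depth of an array is its signal over background.

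Computations were done in R 4.3.3 with the package limma (3.58.1). Loess normalization was applied to each array, and no background was subtracted. Control spots had weight 0, and spots of a probe were averaged. A linear model with the genotype (sign by dye) was fitted to 41174 probes with empirical Bayes, and p values were adjusted by Benjamini and Hochberg over all probes (FDR limit 0.1). For mouse levels, channels after loess and Aquantile were averaged over both dyes. Of the probes 22072 were named by RefSeq accession and 1211 by the symbol in the description. No filter was applied. Alternatives covered background, pixel summary, normalization, dim probes, dye, replicate unit, threshold, and leaving out arrays and mice. The scripts were tested on simulated data.

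Every subunit probe is described. Of the partner and marker lists, genes with a probe past the FDR are named, and 1 marker result is not reported here. For likeness, the 3 named genes with the highest Pearson r were taken for the AMPA and the NMDA probe with the smallest p. The genes, lists and tests were chosen with earlier results of these data known. Mice were separate animals.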

Additional observations from a re-analysis of the deposited data

Results flagged for a closer look

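Within the 5 TG mice, the level of TG4 was far below the others for Grin1 (7.07 against 8.11 to 8.35), with a gap to the nearest mouse of 0.814 of the range of the group. The same was found for Gria4 A_52_P349182 (6.16 against 6.67 to 6.85), with a gap of 0.745 of the range. Gaps were examined in 39 sets of 5 mice or 10 arrays of the 13 subunit probes, 2 exceeded the limit (0.71 for 5 mice), and chance flags about 1 in 20. Under the exchange of the arrays the mouse of these arrays would be WT5.

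For Grin2b A_51_P265765 the ratio of TG over WT differed between the dye orientations, being above 0 on all 5 arrays with WT in Cy3 and below 0 on all 5 with TG in Cy3. The dye term was 0.237 on the log2 scale (limma, FDR = 0.0045).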

How the results depend on the processing

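The number of subunit probes that passed (1 in the report) was 0 with median centring and with 1 value per mouse, also after the exchange of the arrays, 2 with the log ratio of the scanner software and with a dye term, where Gria4 A_51_P501735 passed too, and 1 to 2 without each array or mouse in turn, where Gria2 passed without WT6/TG1. The call of Gria1 A_52_P39575 held without each of these (log2 ratio -0.281 to -0.227, FDR 0.0108 to 0.0726). Its FDR was 0.0281 with the mouse as a random block in single channels. Of partner probes (8 in the report) 5 passed at an FDR of 0.05, 2 with median centring, 4 with single channels, 0 with 1 value per mouse as labelled or exchanged, and 0 to 10 without each array or mouse (0 without WT4, 3 without WT3 or TG5, 4 without TG1 or the array WT4/TG2, 5 without TG2, TG3, WT5 or the array WT5/TG1, and 6 or more otherwise). With the mouse number as a replicate block on the 4 shared numbers, 0 subunit and 0 partner probes passed, and Gria1 A_52_P39575 was -0.22 (FDR 0.685). The numbers do not pair the mice: same-numbered mice correlated at -0.251 to -0.109.

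The signs of some uncalled probes turned. Grin2b A_51_P265765 was -0.0214 with median pixels, -0.024 without outlier spots (an alternative chosen after seeing the data), -0.113 with the block and -0.011 averaged with the other probe. Grin2a was -0.00218, Gria1 A_51_P498031 was 0.0358 and Gria4 A_52_P279527 was 0.0247 with median centring. Gria3 was -0.0134 and Gria4 A_52_P279527 was 0.00397 with the block. Without each array or mouse these ranged from -0.0318 to 0.0514 (Grin2b), -0.244 to 0.163 (Gria1), -0.0361 to 0.183 (Gria3) and -0.0915 to 0.0144 (Gria4). The cause was not tested. A block for the scan date could not be fitted, since all arrays share 1 date, and the ABI alternatives were not run, since no subunit could be named there.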

Other observations

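Other partner genes of the lists stood out on the 2 arrays of TG4 without passing the FDR over all arrays, and they were chosen after their values were seen. Nsf, the ATPase that binds GluA2 and drives vesicle fusion, had a mean log2 ratio of -3.58 on these arrays and -0.0065 on the other 8 with A_51_P160202, and -0.62 and -0.08 with its other probe. Slc17a7, the vesicular glutamate transporter VGLUT1 of hippocampal excitatory neurons, had -1.89 and 0.04. Cacng2, which encodes the AMPA receptor auxiliary subunit stargazin, had -1.32 and -0.04, and Dlg4, which encodes the scaffold PSD-95, had -0.93 and -0.06. Grina, an NMDA receptor associated protein, was high on these arrays with 0.98, against 0.06 on the others.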
